A study of Mus musculus with 18 samples.

Results

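Interferon-induced antiviral effector genes were followed in a mouse brown adipocyte line in which ABHD5, the protein that activates adipose triglyceride lipase (ATGL), could be switched on with doxycycline (Dox). The set holds 10 of the 17672 genes in the deposited count table and was chosen by name, with the Dox effect in these data already known. Its members are Ifit1, Ifit2, Ifit3, Ifi44, Bst2, Rsad2, Mx1, Mx2, Rtp4 and Samhd1. All 10 were found in the table, and 9 of them were among the 10178 genes that passed the filter on low counts. Ifit1 did not pass it and is described by its counts.

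Type I interferons are secreted proteins that bind a cell surface receptor and activate the kinases JAK1 and TYK2. The signal passes to transcription factors, STAT2 and IRF9 among them, that enter the nucleus and bind an interferon-stimulated response element in the promoters of their target genes. The effector genes are targets of this pathway, and most encode a protein that blocks a step in the life of a virus, such as entry, genome replication, translation or release. Interferon itself is made after sensors of foreign or misplaced nucleic acid, such as RIG-I and MDA5, have been engaged. Adipocytes, like most cells, carry the receptor and respond to interferon, and the effector genes are kept at a low level without a stimulus.

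The cells were of a mouse brown preadipocyte line, differentiated to adipocytes in culture. All 18 libraries came from 1 engineered line, which carries a stable short hairpin RNA against Abhd5 and a Dox-inducible, hairpin-resistant and mCherry-tagged ABHD5 delivered by lentivirus. The 3 groups without Dox (labelled ABHD5 KD) are therefore knockdown cells, and the 3 groups with Dox at 1 µg/ml (labelled WT) are the same cells with ABHD5 re-expressed. Within each Dox state, cells were stimulated for 3 h with DMSO (vehicle), 10 nM isoproterenol (ISO), a beta-adrenergic agonist that starts lipolysis through the receptor, or 20 µM SR-3420, a ligand of ABHD5 that starts lipolysis without the receptor. Each of the 6 groups held 3 libraries. The labels give a Dox exposure of 24 to 48 h, and the paper's legend for this experiment gives 24 h. No group received Dox without carrying the construct, so an effect of Dox itself and an effect of ABHD5 cannot be told apart. In such bulk samples, fewer cells of a type and less RNA per cell cannot be told apart either.

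Library totals ranged from 689910 to 1956565 counted reads (median 1145729), and the 10 most counted genes took 16.3% to 35.6% of a library, the highest share in SR-3420 with Dox replicate 1. Abhd5, the targeted gene, had a mean of 52.6 ± 4.7 CPM (counts scaled to a library total of 1000000, SD, n = 3) in DMSO without Dox and 574 ± 86 with Dox, 149 ± 22 and 827 ± 28 in ISO, and 75.7 ± 4.2 and 695 ± 140 in SR-3420. Its Dox and no-Dox libraries did not overlap in any treatment. The 10 adipocyte markers in the table summed to 2004 to 2234 CPM in DMSO without Dox and 2454 to 2639 CPM with Dox, 2248 to 2641 against 4663 to 5333 CPM in ISO, and 2986 to 3231 against 3741 to 4726 CPM in SR-3420. Their sum was thus higher with Dox in each treatment. Gene by gene, 8 of 10 had a positive fold change in DMSO (median log2 0.21), where 1 passed an adjusted p of 0.05 in the edgeR test and 0 also had a log2 fold change of 1. All 10 were positive in ISO (median 1.33) and in SR-3420 (median 0.57), where 6 and 3 passed both limits. Their part in the results that follow was not tested. The 7 macrophage markers summed to between 9.76 and 22.1 CPM over the 18 libraries, with groups that overlapped between no Dox and Dox in all 3 treatments. The 5 lymphocyte markers in the table summed to at most 2.16 CPM and the 4 dendritic cell markers to at most 6.74 CPM. Cd8a, of cytotoxic lymphocytes, and Siglech, of plasmacytoid dendritic cells, were at 0 counts in every library.

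Promoter windows of 300 bases (250 before and 50 after the annotated start, RefSeq, GRCm38.p6) were at hand for 7 of the 10 members. They were searched on both strands for GAAANNGAAA, that is, copies of GAAA with 2 bases between them, which are the core of an interferon-stimulated response element. Ifit1, Ifit3, Bst2 and Rsad2 held at least 1 match, so 4 of 7 members, against 1079 of 27025 genes (3.99%) with a promoter window in the same table. Ifit2, Ifi44 and Samhd1 held none, and Mx1, Mx2 and Rtp4 were not analysed here. With 3 bases in place of 2 between the copies, Ifi44, Ifit3 and Rsad2 matched, as did 3.17% of genes. The 200 bases before the start of the 4 genes with a match are given 5′ to 3′ on the strand of the gene, with the matches in capitals, because they show where the matches lie.
Ifit1 (chr19:34640689-34640888, plus strand): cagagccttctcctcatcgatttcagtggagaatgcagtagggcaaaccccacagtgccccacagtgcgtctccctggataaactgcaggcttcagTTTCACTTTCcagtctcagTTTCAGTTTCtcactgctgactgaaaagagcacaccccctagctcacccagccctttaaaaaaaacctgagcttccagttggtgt
Ifit3 (chr19:34583329-34583528, plus strand): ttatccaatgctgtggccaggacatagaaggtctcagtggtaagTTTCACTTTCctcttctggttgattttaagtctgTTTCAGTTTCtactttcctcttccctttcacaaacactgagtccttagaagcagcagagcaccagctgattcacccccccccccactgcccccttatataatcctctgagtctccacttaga
Bst2 (chr8:71537473-71537672, minus strand): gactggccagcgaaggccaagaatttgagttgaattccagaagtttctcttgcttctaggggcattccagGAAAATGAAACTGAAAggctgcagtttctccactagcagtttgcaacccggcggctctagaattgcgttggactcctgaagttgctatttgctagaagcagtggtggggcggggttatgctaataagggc
Rsad2 (chr12:26456453-26456652, minus strand): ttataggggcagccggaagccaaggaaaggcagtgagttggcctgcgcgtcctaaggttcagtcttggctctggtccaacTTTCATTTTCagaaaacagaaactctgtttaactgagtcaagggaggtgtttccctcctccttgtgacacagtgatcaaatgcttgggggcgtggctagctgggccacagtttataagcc
All matches lay within 160 bases before the start. In Ifit1, Ifit3 and Rsad2 the match was on the strand opposite the gene, and Ifit1 and Ifit3 each held a pair of matches with the same letters. The matches in Bst2 were on the strand of the gene and overlapped each other. A match is a description of these letters and was not tied to binding by any measurement in these data.

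Over the 3 treatments, the libraries with Dox held more reads of the effectors than those without. Every one of the 10 genes was higher in all 3 DMSO libraries with Dox than in any DMSO library without it, and the same held for 8 of 10 in ISO and 9 of 10 in SR-3420. Of all tested genes, 7.98%, 14.7% and 15.4% were separated in this direction in DMSO, ISO and SR-3420. The exceptions were Ifit1 and Samhd1 in ISO and Samhd1 in SR-3420. Among the 9 members that could be fitted, 7, 8 and 8 were past an adjusted p of 0.05 and a log2 fold change of 1, as were 0.874%, 3.13% and 2.44% of all tested genes. In SR-3420 the count was 7 whichever of its 6 libraries was left out, and the member no longer past the limits was Ifit2 each time, while it was 5 to 8 in DMSO and 7 to 8 in ISO. These members were chosen for this difference, so the Dox values that follow are a description and carry no test. Their median log2 fold change, Dox over no Dox, was 4.02 in DMSO, 3.25 in ISO and 3.35 in SR-3420, where the median of all tested genes was 0.00, -0.01 and 0.00. The fitted values averaged over the treatments ran from 0.48 for Samhd1 to 4.62 for Rsad2. The counted length of most genes is close to that of their introns, while the stated counting option is for whole genes, so whether these values follow unspliced or all transcripts is not settled. Reads of Abhd5 in DMSO rose from 148 without Dox to 2272 with Dox, which induces the lentiviral copy. If that copy gave the added reads and holds no introns, exon reads were counted for Abhd5. The paper does not state whether the copy holds introns.

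**Figure D1:**
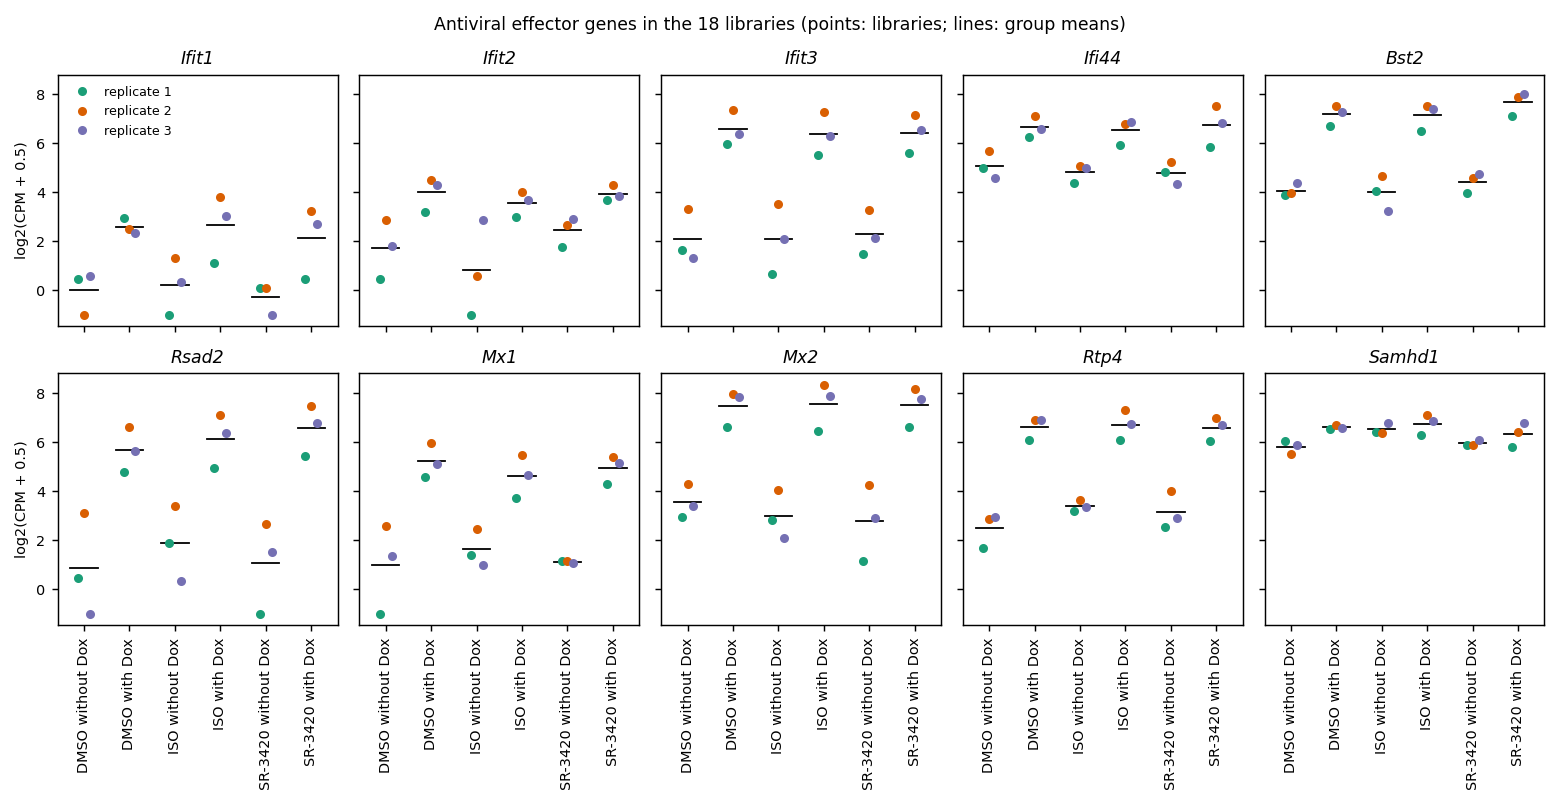
Level of each of the 10 effector genes, as log2(CPM + 0.5), in the 18 libraries. Points are libraries coloured by replicate number and lines are means of 3. The Dox libraries lie above the no-Dox libraries for every gene in DMSO, and the gap between the groups there is narrowest for Ifit2, where the lowest Dox library had 8.67 CPM and the highest no-Dox library 6.80 CPM.

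The IFIT proteins act together on viral RNA that lacks the cap methylation of the host and keep it from being translated. Their genes lie side by side on mm9 chr19, Ifit2 at chr19:34625184-34651024, Ifit3 at chr19:34658019-34663472 and Ifit1 at chr19:34715379-34724499, all on the plus strand. Ifit3 had 2.67, 9.52 and 2.03 CPM in the DMSO libraries without Dox (replicates 1, 2 and 3) and 62.1, 161 and 83.1 with Dox. In ISO it had 1.08, 10.9 and 3.75 CPM without Dox and 45.0, 156 and 78.9 with Dox. In SR-3420 the values were 2.32, 9.29 and 3.92 CPM without and 47.5, 140 and 91.9 with Dox. The lowest Dox library was thus 4.13 to 6.52 times the highest library without Dox, and replicate 2 was the highest in each of the 6 groups. The fitted log2 fold change was 4.51 (SE 0.62) in DMSO, 4.15 (SE 0.58) in ISO and 4.10 (SE 0.53) in SR-3420. Without replicate 2 of the matching no-Dox group it was 5.32, 5.11 and 4.89, and without ISO with Dox replicate 2 the ISO value was 3.55.

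Ifit2 was the lowest of the fitted members in cells with Dox. It had 0.890, 6.80 and 3.04 CPM in DMSO without Dox and 8.67, 21.9 and 19.1 CPM with Dox. Without Dox this is 1, 5 and 3 reads, so single reads weigh heavily. In ISO the groups lay closest together, since the lowest Dox library (7.50 CPM) was 1.11 times the highest without Dox (6.76 CPM). Its log2 fold changes were 2.22 (SE 0.61), 1.95 (SE 0.62) and 1.53 (SE 0.51) in DMSO, ISO and SR-3420. Without ISO without Dox replicate 3, which held 9 of that group's 10 reads, the ISO value became 4.27, and without DMSO without Dox replicate 2 the DMSO value became 2.94. Ifit1 had 1, 0 and 1 reads in DMSO without Dox and 15, 5 and 4 with Dox. It had 0, 2 and 1 reads in ISO without Dox and 2, 17 and 8 with Dox, and 1, 1 and 0 against 1, 9 and 6 in SR-3420. The ratio of summed counts, scaled to the same totals as the CPM, was 8.69 in DMSO (95% exact interval 2.16 to 75.9), 8.38 in ISO (2.58 to 43.2) and 12 in SR-3420 (2.82 to 108). These intervals cover counting error only. The neighbouring family member Ifit3b, listed as I830012O16Rik and close in sequence to Ifit3, had log2 fold changes of 4.44 (SE 0.85), 4.85 (SE 0.89) and 4.74 (SE 0.85). It was listed with the Dox effect already known and passed the filter on low counts through the Dox groups, so these values are a description too. All of its 3 reads in ISO without Dox lay in replicate 2, without which the ISO value was 8.16. Without ISO without Dox replicate 3 it was 4.15 and without ISO with Dox replicate 2 it was 3.97, and the SR-3420 value without SR-3420 without Dox replicate 1 was 4.14. Reads that match both genes could have been split between them, so the value of either is uncertain to that extent.

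Rsad2 encodes viperin, an enzyme that makes a chain-terminating nucleotide and so stops viral polymerases (mm9 chr12:27127608-27141317, minus strand). It had 0.890, 8.16 and 0 CPM in DMSO without Dox and 27.0, 97.9 and 49.4 CPM with Dox. In ISO it had 3.24, 9.91 and 0.751 CPM without Dox and 30.0, 135 and 81.8 CPM with Dox. In SR-3420 it had 0, 5.81 and 2.35 CPM without and 43.1, 175 and 108 CPM with Dox. Every library with Dox lay above every library without it, of which the highest had 9.91 CPM. The log2 fold change was 4.40 (SE 0.89), 4.23 (SE 0.72) and 5.24 (SE 0.69) in DMSO, ISO and SR-3420. These values leaned on replicate 2 of the no-Dox groups, and without it they were 6.56, 5.47 and 6.60. Without DMSO without Dox replicate 3 the DMSO value was 3.8, without DMSO with Dox replicate 2 it was 3.79, without ISO without Dox replicate 3 the ISO value was 3.60, and without SR-3420 without Dox replicate 1 the SR-3420 value was 4.60.

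Mx1 and Mx2 encode dynamin-like GTPases that trap viral ribonucleoproteins, Mx1 in the nucleus and Mx2 in the cytoplasm of mouse cells. They lie on mm9 chr16, Mx1 at chr16:97668644-97684512 on the minus strand and Mx2 at chr16:97757690-97782506 on the plus strand, and as paralogs could share some reads. Mx2 had 7.12, 19.0 and 10.1 CPM in DMSO without Dox and 97.2, 247 and 231 CPM with Dox. It had 6.48, 15.9 and 3.75 CPM in ISO without Dox and 86.7, 322 and 232 CPM with Dox. In SR-3420 it had 1.74, 18.6 and 7.06 CPM without and 98.4, 285 and 216 CPM with Dox. The lowest library with Dox was at least 5.11 times the highest without it in every treatment. Mx1 was scarcer, with 0, 5.44 and 2.03 CPM in DMSO without Dox and 23.1, 62.5 and 33.7 CPM with Dox. Its values in the Dox libraries were 12.5 to 43.3 CPM in ISO and 19.3 to 41.8 CPM in SR-3420, above a highest value without Dox of 4.96 and 1.74 CPM. The log2 fold changes were 4.02 (SE 0.56), 4.67 (SE 0.56) and 4.40 (SE 0.52) for Mx2 and 4.09 (SE 0.62), 3.25 (SE 0.59) and 4.14 (SE 0.58) for Mx1. Without replicate 2 of the matching no-Dox group, Mx2 was 5.43 in ISO and 5.59 in SR-3420, and Mx1 was 5.17 in DMSO and 3.87 in ISO. Without DMSO without Dox replicate 1, Mx1 was 3.39 in DMSO.

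Bst2 encodes tetherin, a membrane protein that holds budding virus particles to the cell surface (mm9 chr8:74058161-74061336, minus strand). It had 14.2, 15 and 20.3 CPM in DMSO without Dox and 104, 183 and 155 CPM with Dox. In ISO it had 16.2, 24.8 and 9.01 CPM without and 89.2, 185 and 167 CPM with Dox, and in SR-3420 15.1, 23.2 and 26.7 CPM without and 137, 236 and 255 CPM with Dox. Its Dox effect was the most even of the set, with log2 fold changes of 3.12 (SE 0.33), 3.19 (SE 0.32) and 3.28 (SE 0.28). Rtp4, which encodes a zinc-finger protein that binds viral replication machinery (mm9 chr16:23610005-23614308, plus strand), had 2.67, 6.80 and 7.10 CPM in DMSO without Dox and 66.4, 119 and 118 CPM with Dox. In ISO and SR-3420 it had 5.23 to 15.7 CPM without Dox and 65.0 to 158 CPM with Dox, with no overlap. Its log2 fold changes were 4.18 (SE 0.44), 3.44 (SE 0.37) and 3.35 (SE 0.35), the last 4.0 without SR-3420 without Dox replicate 2.

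Ifi44 and Samhd1 had the smallest Dox effects by the mean over the treatments, although in SR-3420 that of Ifit2 was smaller than that of Ifi44. Ifi44, an interferon-induced protein whose action on viruses is less well defined (mm9 chr3:151393887-151412923, minus strand), had 31.1, 50.3 and 23.3 CPM in DMSO without Dox and 75.6, 137 and 94.4 CPM with Dox. It had 20.5, 32.7 and 31.5 CPM against 60, 111 and 117 CPM in ISO, and 27.9, 37.2 and 19.6 CPM against 57.1, 181 and 114 CPM in SR-3420. The groups did not overlap, and the log2 fold changes were 1.56 (SE 0.34), 1.74 (SE 0.34) and 2.01 (SE 0.32). Samhd1, a hydrolase that depletes the deoxynucleotides needed for reverse transcription (mm9 chr2:156923265-156960958, minus strand, with an annotated miRNA inside its span), had 65.8, 44.9 and 57.8 CPM in DMSO without Dox and 91.5, 102 and 95.5 CPM with Dox. In ISO it had 85.4, 83.3 and 110 CPM without and 76.7, 138 and 116 CPM with Dox, and in SR-3420 58.6, 58.1 and 66.7 CPM without and 55.4, 85.5 and 110 CPM with Dox. Replicate 1 with Dox lay below every no-Dox library in both of these treatments. Its log2 fold changes of 0.75 (SE 0.22), 0.24 (SE 0.20) and 0.45 (SE 0.21) were the smallest of the set.

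**Figure D2:**
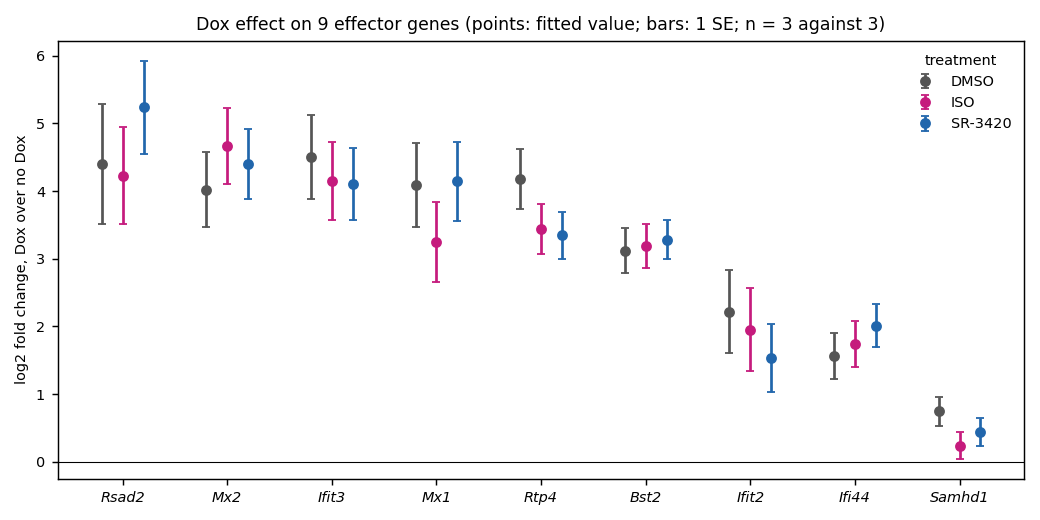
Fitted log2 fold change, Dox over no Dox, of the 9 effectors that passed the filter, by treatment. Points are fitted values and bars 1 SE, from 3 against 3 libraries. Genes are ordered by their mean over the treatments, from 4.62 for Rsad2 to 0.48 for Samhd1.

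Levels were set against each other per kilobase (kb) of counted sequence, a length that may not match the reads, since it is not settled whether exon reads were counted. On this length, in DMSO with Dox the order was Bst2 at 61.2 ± 16.6 CPM per kb (SD, n = 3), Rtp4 at 37.0 ± 11, Ifit3 at 29.6 ± 15.1, Mx2 at 8.56 ± 3.67, Ifi44 at 7.93 ± 2.45, Rsad2 at 6.12 ± 3.82, Mx1 at 4.39 ± 2.25, Samhd1 at 3.44 ± 0.19, Ifit1 at 0.870 ± 0.218 and Ifit2 at 0.756 ± 0.318. Neighbours in this order differed by less than their summed SDs, except Ifit3 from Mx2 and Samhd1 from Ifit1. Without Dox in DMSO, Bst2 (6.85 ± 1.37), Ifi44 (2.70 ± 1.08), Rtp4 (2.02 ± 0.91), Samhd1 (2.00 ± 0.38) and Ifit3 (1.37 ± 1.20) lay above 1 CPM per kb and the other 5 members below 0.6. Other lengths, tried after the data were seen, changed the order. Per kb of annotated exons, Mx2 (79.4 ± 34.0 CPM per kb with Dox) stood above Rtp4 (64.2 ± 19.0) and Ifit3 (58.6 ± 30.0) by less than the SDs, and Ifit2 above Ifit1. Per kb of gene span, Samhd1 stood above Mx1 and Ifit2 above Ifit1. Bst2 was first in both states with each of the 3 lengths.

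Stimulation asked whether ISO or SR-3420 changed the effectors within a Dox state. Without Dox, ABHD5, the target of SR-3420, is knocked down, and the paper reports more fatty acid release with Dox. The comparisons without Dox therefore do not show what full lipolysis does to the effectors. The stimulation comparisons did not enter the choice of members and were tested with edgeR, although those against DMSO reuse the same DMSO libraries. Among the 9 fitted members, only Samhd1 with ISO in cells without Dox passed, at a log2 fold change of 0.71 (SE 0.22, adjusted p = 0.0152), against 28% of all tested genes that passed in this comparison. Its ISO libraries, at 83.3 to 110 CPM, lay above the DMSO libraries, at 44.9 to 65.8 CPM. The call was lost without DMSO without Dox replicate 2 (log2 0.59, adjusted p = 0.0669) and without ISO without Dox replicate 3 (log2 0.56, adjusted p = 0.0987). With Dox, where Samhd1 was already at 96.3 ± 5.3 CPM in DMSO, ISO gave 0.20 (SE 0.19, adjusted p = 0.452), and the difference of the Dox effects, -0.51 (95% interval -1.15 to 0.13, adjusted p = 0.448), did not pass.

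No other member passed with ISO. Without Dox the remaining values lay between -0.44 for Mx2 and 0.92 for Rtp4, with wide intervals (-0.51 to 2.35 for Rtp4). With Dox, none of the 9 passed in edgeR at an adjusted p of 0.05, none had an unadjusted p under 0.05, and none passed in DESeq2 or limma-voom, where 32.5% of all tested genes passed in edgeR. The values lay between -0.48 (95% interval -1.28 to 0.33) for Mx1 and 0.61 (-0.39 to 1.61) for Rsad2. Bst2 had 0.03 (-0.49 to 0.55) and Samhd1, with the narrowest interval, 0.20 (-0.22 to 0.63). With no filter on low counts, Rsad2 passed here (log2 0.63, adjusted p = 0.00818). With a replicate block by number, Mx1 did (log2 -0.58, adjusted p = 0.0483). With SR-3420 and no Dox, none passed either (0 of 9, unadjusted p under 0.05 in 0, DESeq2 0 and limma-voom 0), while 0.766% of all tested genes did. Several members had too few reads in these groups to show a change of moderate size, since the 3 DMSO and the 3 SR-3420 libraries without Dox held 6 and 8 reads of Mx1 and 7 and 13 of Rsad2. These genes passed the filter through the Dox groups, and the interval for Rsad2 ran from -3.13 to 3.42.

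With SR-3420 and Dox, 9.9% of all tested genes passed and no member did in edgeR, DESeq2 or limma-voom, while 2 members had an unadjusted p under 0.05. Rsad2 was 0.98 higher on the log2 scale (SE 0.45, 95% interval 0.00 to 1.97, adjusted p = 0.186), with 43.1, 175 and 108 CPM against 27.0, 97.9 and 49.4 CPM in DMSO. Bst2 was 0.53 higher (SE 0.23, interval 0.02 to 1.04, adjusted p = 0.169), with 137, 236 and 255 CPM against 104, 183 and 155 CPM. For both genes 2 of 3 SR-3420 libraries lay above the highest DMSO library, and the groups overlapped. Between libraries of the same replicate number, SR-3420 was the higher for both genes each time. With a replicate block by number in edgeR, Rsad2 (log2 0.88, adjusted p = 0.000686) and Bst2 (log2 0.49, adjusted p = 0.00563) passed. The labels do not say that a number marks a shared experiment. Rsad2 passed without DMSO with Dox replicate 2 (log2 1.59, adjusted p = 0.0455) and Bst2 without SR-3420 with Dox replicate 1 (log2 0.76, adjusted p = 0.0446), and both passed with no filter on low counts (adjusted p = 1.98e-05 and 0.015). The 7 other members lay between -0.26 for Mx1 and 0.22 for Ifi44.

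The Dox effect was also compared between treatments. Its difference in ISO from that in DMSO ran from -0.84 for Mx1 (95% interval -3.26 to 1.58) to 0.64 for Mx2 (-1.50 to 2.79), and in SR-3420 from -0.83 for Rtp4 (-2.31 to 0.65) to 0.84 for Rsad2 (-2.85 to 4.53). None of the 9 passed in either interaction with edgeR, DESeq2 or limma-voom, and none had an unadjusted p under 0.05, while 2.18% and 0.757% of all tested genes passed with edgeR. The no-Dox libraries hold few reads of most members, and the intervals were wide. The narrowest intervals were those of Samhd1, at -0.51 (-1.15 to 0.13) in ISO and -0.30 (-0.95 to 0.35) in SR-3420. Bst2 had 0.07 (-1.07 to 1.20) and 0.16 (-0.90 to 1.22), and Ifi44 had 0.18 (-0.90 to 1.26) and 0.45 (-0.59 to 1.49). For Abhd5 itself the Dox effect was 0.98 smaller in ISO than in DMSO on the log2 scale (difference -0.98, SE 0.23, adjusted p = 0.0194), a call that was lost when replicate 1 of DMSO without Dox, replicate 1 of the ISO group without Dox, or replicate 2 of DMSO with Dox was left out (adjusted p = 0.0816, 0.0716 and 0.0512).

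**Figure D3:**
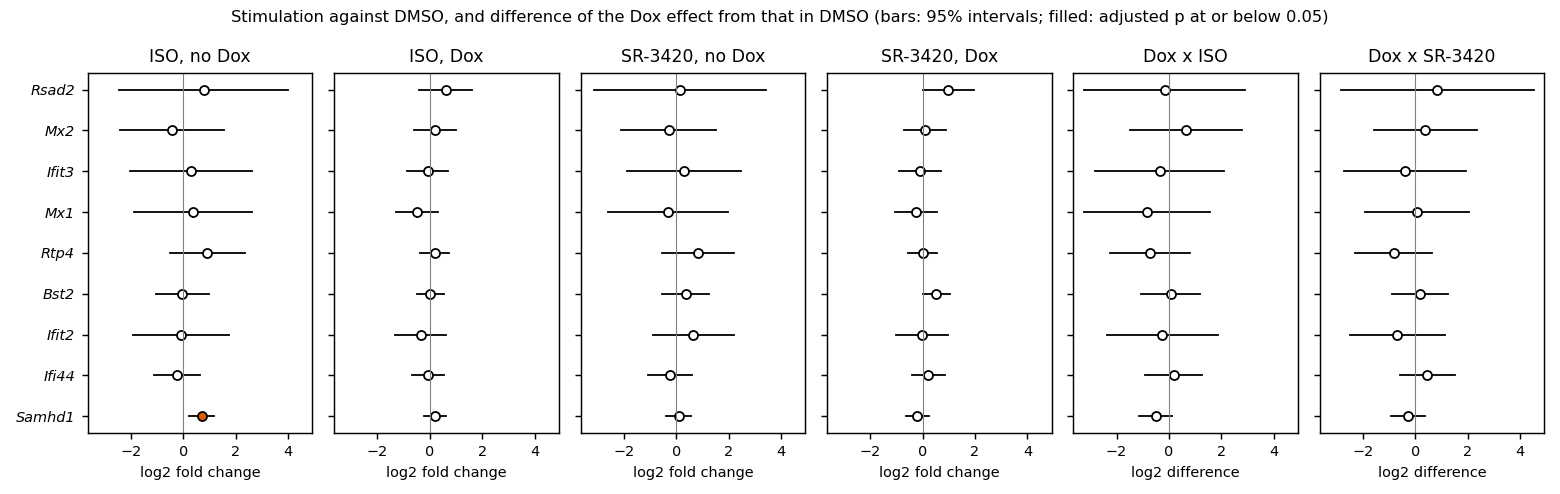
Effect of ISO and SR-3420 against DMSO in each Dox state (first 4 panels) and the difference of the Dox effect in ISO or SR-3420 from that in DMSO (last 2 panels), on the log2 scale, for the 9 fitted effectors. Points are fitted values, bars 95% intervals, and the filled point, Samhd1 with ISO without Dox at 0.71, passed an adjusted p of 0.05.

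The effectors varied together between libraries of the same group. After the group means were taken away, the 36 pairs of fitted members had a median correlation of 0.56 over the 18 libraries (0.02 to 0.90), and other genes had a median correlation of -0.01 with the mean of the members. These points share their library and its depth. The mean deviation of the members was negative in replicate 1 of all 6 groups, at -0.44 to -0.78 on the log2 scale, and positive in replicate 2 of all 6, at 0.51 to 0.86. Replicate 3 lay between them, at -0.21 to 0.19. Ifit3, Rsad2, Mx1 and Mx2 were highest in replicate 2 in 6 of 6 groups, Ifi44 and Rtp4 in 5, Ifit1 and Ifit2 in 4, Bst2 in 3 and Samhd1 in 2. The mean deviations had these signs with and without Dox. What the numbers stand for is not given in the labels.

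**Figure D4:**
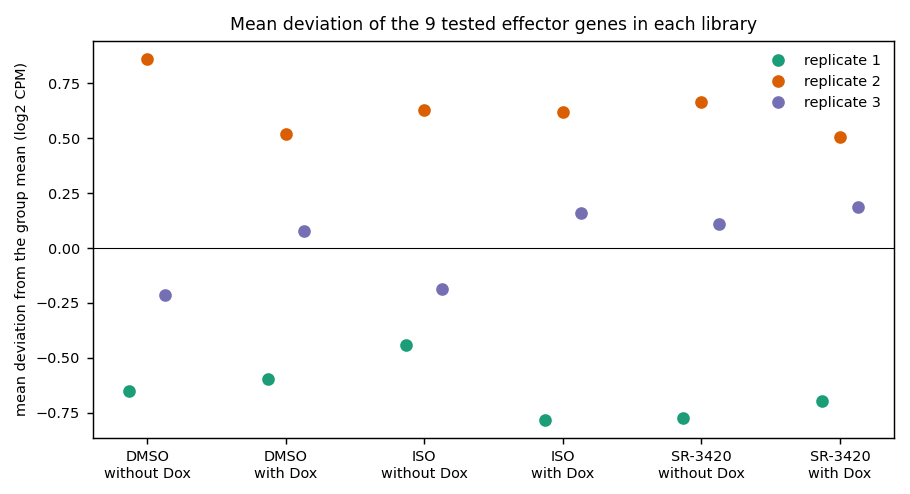
Mean deviation of the 9 fitted effectors from their group mean, on the log2 CPM scale, in each library. Points are libraries coloured by replicate number. Replicate 2 lies above 0.5 and replicate 1 below -0.4 in all 6 groups.

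Genes elsewhere in the interferon pathway were counted from lists written from general knowledge of the response, with the Dox effect in these data already known, so their Dox calls and p-values are not independent evidence of its direction. Of 89 further interferon-response genes, 82 were in the table and 64 were tested. Stat2, Irf9, Dhx58 and Ifih1 are among the 64 and are also listed with the signalling genes or the sensors. With Dox 31 of these 64 (48.4%) passed both limits and were higher in DMSO, 32 (50%) in ISO and 33 (51.6%) in SR-3420, and none was lower. Their median log2 fold change was 1.28, 0.99 and 1.21, so they stood between the effectors and the whole of the tested genes. Of the 64, 26 passed in all 3 treatments, 7 in 2, 4 in 1 and 27 in none. The largest by the mean over treatments were Oas1a, which makes the 2-5A signal that activates RNase L, at a mean of 4.65, Usp18, which removes ISG15 and dampens receptor signalling, at 3.25, Trim30a at 3.05, Ddx60 at 3.04 and Parp14 at 2.98. Each passed in all 3 treatments in edgeR, with adjusted p of at most 0.000679, while limma-voom did not call Trim30a in DMSO (adjusted p = 0.0605). In ISO, Oas1a moved from 6.02 to 8.01 without ISO without Dox replicate 2 and to 5.41 without ISO without Dox replicate 3, and Trim30a moved from 2.88 to 3.93 without that replicate 2. Parp14 in SR-3420 moved from 2.86 to 3.55 without SR-3420 without Dox replicate 2. At the other end, Il15 (mean -0.34), Lap3 (-0.26) and Slc25a28 (-0.24) did not pass in any treatment. The Il15 value in DMSO moved from -0.61 to 0.21 without DMSO with Dox replicate 1 and to -1.68 without DMSO with Dox replicate 2, and that in ISO moved from -0.45 to -2.36 without ISO with Dox replicate 2.

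Among the tested genes of interferon signalling, Stat2 and Irf9, whose products bind the response element, passed and were higher with Dox in all 3 treatments. Stat2 rose by 1.86 (SE 0.30), 1.07 (SE 0.27) and 1.76 (SE 0.28) on the log2 scale in DMSO, ISO and SR-3420, with adjusted p of 0.000246, 0.0062 and 7.61e-05. Irf9 rose by 2.00 (SE 0.37), 1.22 (SE 0.38) and 1.41 (SE 0.34), with adjusted p of 0.00147, 0.0308 and 0.00588. In ISO, the Stat2 call was lost without ISO without Dox replicate 3 (adjusted p = 0.051) and the Irf9 call without ISO with Dox replicate 2 (0.260), ISO without Dox replicate 1 (0.124) or ISO without Dox replicate 3 (0.107). The receptor genes Ifnar1 and Ifnar2 and the kinase gene Tyk2 did not pass in any treatment, and Jak1 passed only the adjusted p, in SR-3420 (0.62, adjusted p = 0.0218). Among 9 tested nucleic acid sensors, Zbp1, Dhx58, Ddx58 (RIG-I) and Ifih1 (MDA5) passed in all 3 treatments, with mean log2 fold changes of 3.47, 2.89, 2.81 and 1.92. Mavs, the adaptor of RIG-I and MDA5, was lower by the adjusted p alone in SR-3420 (-0.84, adjusted p = 0.0208). Without replicate 2 of the matching no-Dox group, Ddx58 moved from 3.16 to 3.76 in ISO and from 2.60 to 3.19 in SR-3420. Ifih1 in DMSO lost its call without DMSO without Dox replicate 3 (adjusted p = 0.0643), and Zbp1 in DMSO lost its call in limma-voom (adjusted p = 0.217). Of the relatives of the members, 2 of 7 were tested, Ifit3b and 2010002M12Rik (mean 3.49). Both passed in all 3 treatments, against 0.874%, 3.13% and 2.44% of all tested genes. With 4 and 5 reads in DMSO without Dox, they passed the low-count filter through the Dox groups, so their calls say little of the relatives as a set. Of those not tested, Gm14446 had 1 read without Dox and 14 with Dox in DMSO, and Ifi44l had 5 and 1. In limma-voom both DMSO calls were lost (adjusted p = 0.114 and 0.0655). The call of 2010002M12Rik in ISO was lost without ISO without Dox replicate 3 (adjusted p = 0.0627). Its value there moved from 2.72 to 3.92 without replicate 2 of the same group. Rtp1 and Rtp2, relatives of Rtp4, had no read in any library.

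**Figure D5:**
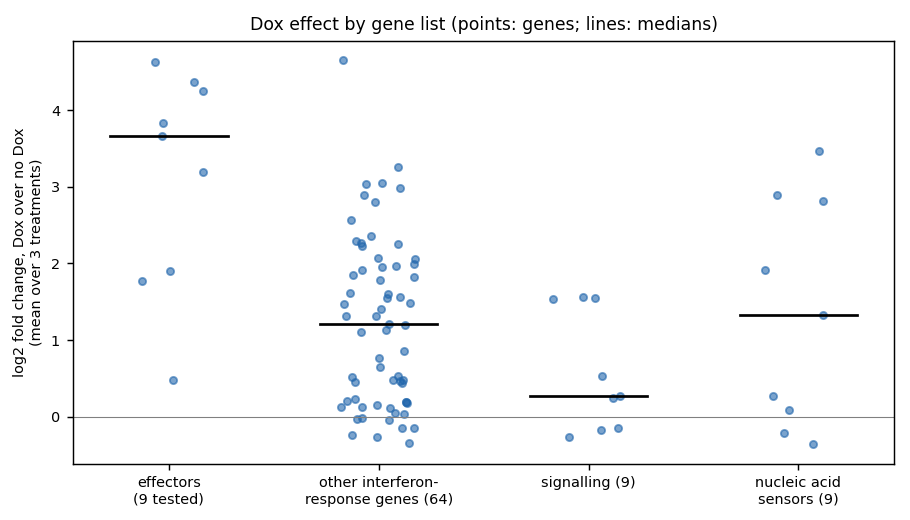
Log2 fold change, Dox over no Dox, averaged over the 3 treatments, for the fitted effectors and 3 lists of related genes. Points are genes and lines medians, at 3.66 for the 9 effectors, 1.21 for the 64 other interferon-response genes, 0.27 for 9 signalling genes and 1.33 for 9 nucleic acid sensors. The lists overlap, so a gene such as Stat2 or Ifih1 appears in more than 1 of them.

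The genes outside the set whose level followed the effectors most closely were Adar, an RNA-editing enzyme (Pearson r = 0.988 with the mean of the members over the 18 libraries), Xaf1 (0.985), the immunity-related GTPase genes Irgm1 (0.979) and Iigp1 (0.978), and Apol9b (0.979). Since the libraries fall into a Dox and a no-Dox cluster, these values mostly restate the Dox contrast. With the group means taken away, r with the members was 0.889 for Adar, 0.921 for Xaf1, 0.877 for Irgm1, 0.912 for Iigp1 and 0.884 for Apol9b. No p-value is given, as these genes were picked for the likeness and the points share libraries.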

How the data were processed

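RNA-seq counts for 18 libraries of the inducible ABHD5 line were analysed (6 groups of 3). The authors extracted total RNA with TRIzol, prepared TruSeq libraries, aligned reads with STAR 2.4.2a to mm9, used HOMER to keep 1 read per position and length, obtained a count for each gene from iRNA-seq with its option for whole genes, and they deposited whole-number counts with no normalization. The counted length of a gene was within 10% of its intron length for 72.7% of 16407 genes (and of its exon length for 2.28%), although the option named is for whole genes, so whether exon reads were included is not settled by these lengths. Strand use is not given in the sources used here.

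Counts were tested with edgeR 4.0.16 (R 4.3.3): filterByExpr on the 6 groups, TMM factors (0.768 to 1.13), 1 mean per group and the quasi-likelihood test, with Benjamini-Hochberg adjustment over 10178 genes. Calls needed an adjusted p of 0.05 and a log2 fold change of 1. In stimulation and interaction comparisons members were judged by the adjusted p alone. CPM used TMM-scaled totals of the tested genes. Replicates are described by the study as independent experiments; the labels do not give this, so p-values measure the spread between these libraries. Scripts were tested on simulated data. Sequences are RefSeq GRCm38.p6 and were not placed on mm9.

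Named were all 10 members; the 5 largest and 3 smallest other interferon-response genes by mean Dox change; pathway genes, sensors and relatives called in 2 or more treatments; the 5 genes most like the members; and Abhd5. Jak1, Ifnar1, Ifnar2, Tyk2, Rtp1, Rtp2, Gm14446, Ifi44l, Mavs and Tmem140 were added after their values were seen. A gene that the naming rule also picks is not reported here. The members and lists were chosen with earlier results of these data known. Alternatives were other scaling factors, other filters, DESeq2 1.42.0, limma-voom 3.58.1, a replicate block, fits to only the compared groups, no fold limit and leaving out each library.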

Additional observations from a re-analysis of the deposited data

Results flagged for a closer look

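Among the other interferon-response genes, only Tmem140 passed in the interactions of Dox with treatment. Its difference from the Dox effect in DMSO was tested as an interaction in edgeR and passed for ISO (1.55 on the log2 scale, SE 0.25, adjusted p = 0.000397) and for SR-3420 (1.81, SE 0.23, adjusted p = 9.98e-05). With Dox it was 0.66 higher in DMSO (SE 0.18, adjusted p = 0.0738), 2.21 higher in ISO (SE 0.16, adjusted p = 9.40e-11) and 2.47 higher in SR-3420 (SE 0.15, adjusted p = 9.71e-13). Both interactions use the same DMSO libraries. Tmem140 also rose with stimulation in cells with Dox, by 2.54 with SR-3420 (edgeR adjusted p = 2.07e-12) and 1.58 with ISO (3.57e-09). Without Dox it rose by 0.73 with SR-3420 (adjusted p = 0.0405) and by 0.03 with ISO, which did not pass (0.920).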

How the results depend on the processing

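Every fitted Dox value of the members kept its sign in all 387 alternative fits. Members called higher with Dox numbered 7, 8 and 8 in DMSO, ISO and SR-3420, and 5 to 8, 7 to 8 and 7 when a library was left out. The calls lost were those of Ifi44 and Rsad2 in DMSO and of Ifit2 in ISO and SR-3420. The other interferon-response genes numbered 31, 32 and 33, and 23 to 32, 26 to 35 and 29 to 34. Asking for at least 10 counts in every library left 2 members and 14 other interferon-response genes in each treatment, since most members are near 0 without Dox and were no longer tested. Over all genes that filter took the calls in either direction from 91, 477 and 346 to 36, 237 and 161.

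In the tested comparisons, the 1 member past the adjusted p with ISO without Dox (Samhd1) became 0 with library totals only (log2 0.54, adjusted p = 0.0872) and 0 to 1 when a library was left out. Over all alternatives its adjusted p lay between 0.00100 and 0.0987. With no filter on low counts, 1 member passed with ISO and Dox (Rsad2) and 2 with SR-3420 and Dox (Rsad2 and Bst2). Leaving out a library gave 0 to 1 with SR-3420 and Dox. No member passed in an interaction under any alternative, although the filter of 10 counts in every library left only 3 members to test. With a spacing of 1 base in place of 2, 1 member promoter (Ifi44) matched in place of 4. The causes of these changes were not tested. With limma-voom, the Dox calls in DMSO of Trim30a, Zbp1, Ifit3b and 2010002M12Rik were lost (adjusted p = 0.0605, 0.217, 0.114 and 0.0655), as was that of Irf9 in ISO (0.0786, and 0.0699 with only the compared groups). With library totals only, the Abhd5 difference between ISO and DMSO did not pass (adjusted p = 0.0900).

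A replicate block by number was fitted, although the labels do not say that a number marks a shared experiment. Same-numbered libraries of different groups deviated together in 34 of 45 pairs at a correlation over 0.1 (lowest 0.032, median 0.137, against -0.085 for different numbers), and each of the 18 libraries correlated best with its own number, as a hint from the data. With the block, 1 member passed with ISO and Dox (Mx1, -0.58, adjusted p = 0.0483) and 2 passed with SR-3420 and Dox (Bst2, 0.49, adjusted p = 0.00563, and Rsad2, 0.88, adjusted p = 0.000686). It changed no other call of a member. Members with few reads without Dox are limited by depth, Ifit1 above all, with 2, 3 and 2 reads in DMSO, ISO and SR-3420, summed over 3 libraries.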
